A study of Mus musculus with 4 samples.

Results

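Among the 24087 genes of the deposited table, 34 belong to cholesterol and lipid synthesis, and these are described here in regulatory T (Treg) cells of the mouse spleen. They were picked by gene symbol, from the steps of mevalonate and sterol synthesis, its control by SREBP, cholesterol transport and efflux, and fatty acid synthesis, and all 34 symbols were found. The cells were sorted as CD3+CD4+YFP+ from untreated C57BL/6 mice. The KO group was Foxp3Cre-YFPSetd2f/f, in which both alleles of Setd2 are floxed. The CTRL group was Foxp3Cre-YFPSetd2f/+, that is, littermates with a single floxed allele and the same Cre. Setd2 encodes the methyltransferase that trimethylates lysine 36 of histone H3 (H3K36me3). Cre and YFP were driven from the Foxp3 locus, so deletion was directed to Treg cells, and CTRL cells could lose an allele too. There were 2 libraries per genotype, named CTRL 1, CTRL 2, KO 1 and KO 2, each from about 1000000 cells pooled from 2 mice, so that the spread between libraries is a spread between pools. The mice were matched for age, and the study's methods give a general range of weeks, young adult, for its mice and no separate age for these libraries.

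Cholesterol is made from acetyl-CoA through mevalonate, farnesyl diphosphate, squalene and lanosterol. When sterol in the endoplasmic reticulum is low, SCAP escorts the SREBP transcription factors to the Golgi, where they are cleaved and set free to switch on genes of sterol and fatty acid synthesis. INSIG proteins hold this complex back when sterol is plentiful. Excess sterol is esterified by SOAT1 or exported by ABCA1 and ABCG1, which are controlled by the liver X receptors. T cells raise sterol and fatty acid synthesis when they grow and divide, and products of the mevalonate pathway are known to support Treg cell function.

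Levels are given as FPKM (fragments per kilobase of gene, scaled for sequencing depth), which takes account of gene length, so that levels of different genes can be set side by side. The reads behind the values, recovered from the steps between low FPKM values, numbered at least 30574662 in CTRL 1, where the bound was lowest, and at least 33183060 in KO 2, where it was highest. For Setd2 the CTRL libraries gave 23.4 and 25.3 FPKM, and the KO libraries 21.3 and 19.5 FPKM. Both KO libraries were below both CTRL libraries, the direction of the labels, by -0.24 on the log2 scale (standard error 0.076), which did not pass the threshold used below (adjusted p 0.0970). These values cover the whole gene and not the floxed part alone. All 8 genes of a Treg and T cell marker list, Foxp3 and Il2ra included, were expressed, with a summed level of 2148 and 2256 FPKM in the CTRL libraries against 2151 and 2127 FPKM in the KO libraries. Both KO libraries were below both CTRL libraries in 4 of the 8, Foxp3, Il2ra, Cd3g and Cd4 (50%, against 35.5% of all genes tested). They were above in Ikzf2 alone (12.5%, against 29.0%). The log2 fold changes of Foxp3 and Il2ra were -0.17 and -0.35. None of the 8 passed the threshold, against 9.75% of all genes tested. RNA of other cells was present as well. The 10 myeloid markers summed to 296 and 338 FPKM in replicate 1 of CTRL and KO and to 185.4 and 154 FPKM in replicate 2, so the replicates of each genotype lay further apart than the genotypes. The 8 B cell markers summed to between 22.5 and 43.4 FPKM, the 6 CD8 T and NK cell markers to between 34.2 and 40.2 FPKM, and the 5 erythroid markers found to between 4.16 and 38.5 FPKM. None of these marker genes was at 0 in all 4 libraries, and the part of other cells in the results below was not tested, except where a value is given. In bulk RNA of this kind, fewer cells that express a gene and less RNA of it per cell cannot be told apart.

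Splenic Treg cells expressed nearly the whole pathway. Of the 34 genes, 33 were at 1 FPKM or more in all 4 libraries, and only the desaturase gene Scd1 was below 1 FPKM throughout. The tested genes ran from 1.41 FPKM (Abca1, KO 2) to 87.3 FPKM (Nr1h2, KO 1), and at least 80 reads were recovered behind each tested value, which is a lower bound for each gene. The highest means in CTRL were those of Npc2, which encodes the lysosomal cholesterol carrier (79.5 ± 0.30 FPKM, SD, n = 2), Nr1h2, which encodes the liver X receptor beta (78.1 ± 2.72 FPKM), and Srebf2, the main transcription factor of sterol synthesis (64.0 ± 4.09 FPKM). Npc2 and Nr1h2 did not differ beyond their spread in CTRL. Among the enzymes of sterol synthesis, Ebp had the highest mean in CTRL (36.8 ± 1.24 FPKM) and Hsd17b7 the lowest (2.39 ± 0.096 FPKM).

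**Figure D1:**
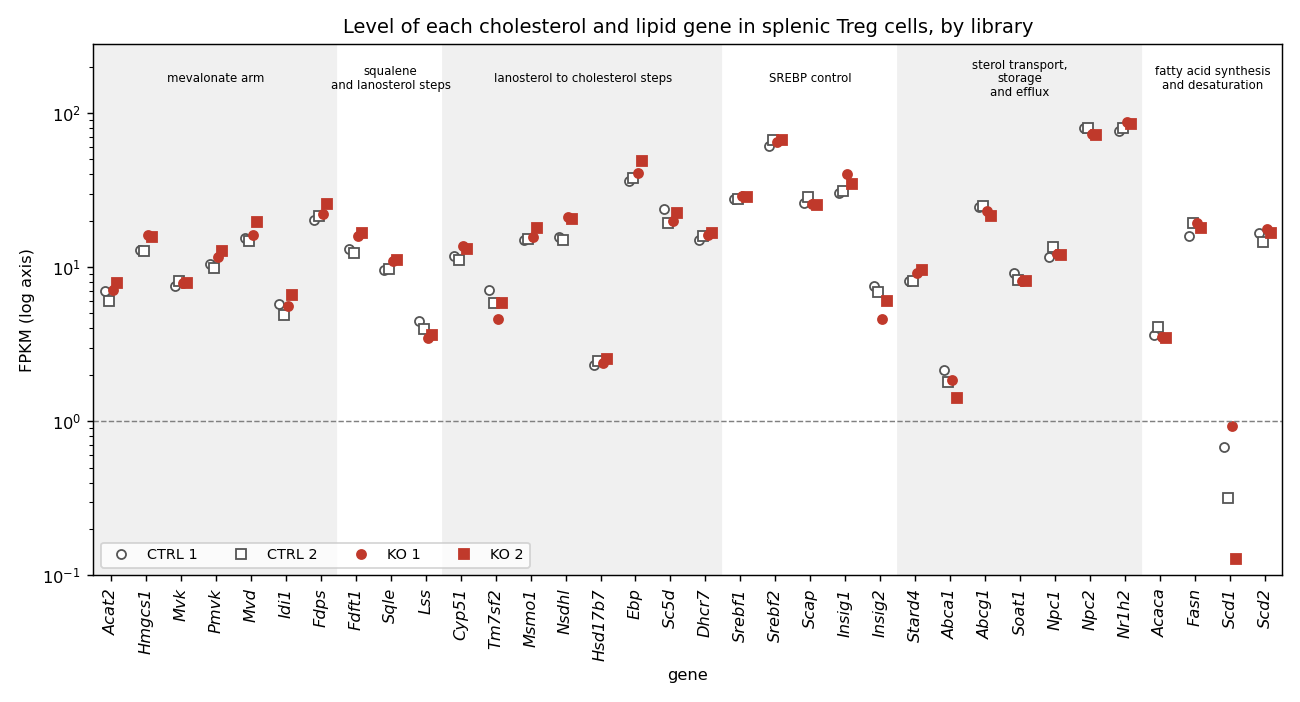
FPKM on a log axis for each of the 34 genes in CTRL 1, CTRL 2 (open symbols), KO 1 and KO 2 (filled symbols), in the order of the pathway, with a dashed line at 1 FPKM. All genes but Scd1 lie above the line in every library, and for most genes the 4 symbols nearly coincide on this scale, which runs from 0.128 FPKM (Scd1, KO 2) to 87.3 FPKM (Nr1h2, KO 1).

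To ask whether these genes differ between the genotypes, KO was compared with CTRL by limma on log2(FPKM + 1) over the 11399 genes with at least 1 FPKM in at least 2 libraries, and all fold changes below are on that scale. Nsdhl rose in KO and was the only one of the 33 genes tested that passed the threshold of an adjusted p under 0.05. This was 3.03% of the genes tested here, and over all genes tested 5.10% rose. No gene fell by this test (0 of 33, against 4.65% of all genes), so 1 of 33 passed in either direction, against 9.75% of all genes. At an unadjusted p under 0.05, 8 of the 33 genes had a positive and 2 a negative fold change, with 16.3% and 18.4% of all genes in those directions. The differences were small, with fold changes from -0.38 (Insig2) to 0.43 (Nsdhl) and a median of 0.089, beside a median of -0.022 over all genes tested.

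Both KO libraries were above both CTRL libraries in 17 of the 33 genes (51.5%, against 29.0% of all genes tested), and below them in 8 (24.2%, against 35.5%). In 12 of the 18 enzymes of sterol synthesis (66.7%) both KO libraries were above, and in Lss and Tm7sf2 they were below. Among the other 15 genes tested, 5 lay above and 6 below, and the difference between these groups of genes was not tested. The median fold change was 0.18 for the 18 enzymes and -0.056 for the other 15 genes. The count of enzymes above was 12 after median-ratio scaling, against 31.8% of all genes tested. It was 12 after scaling to the same sum (27.4%) and after removal of the trend with gene length (30.8%). It was 14 after quantile normalization (28.4%). The count below was 2 after scaling to the same sum (37.5%). It was 1 after median-ratio scaling, removal of the length trend and quantile normalization (32.2% to 33.7%).

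**Figure D2:**
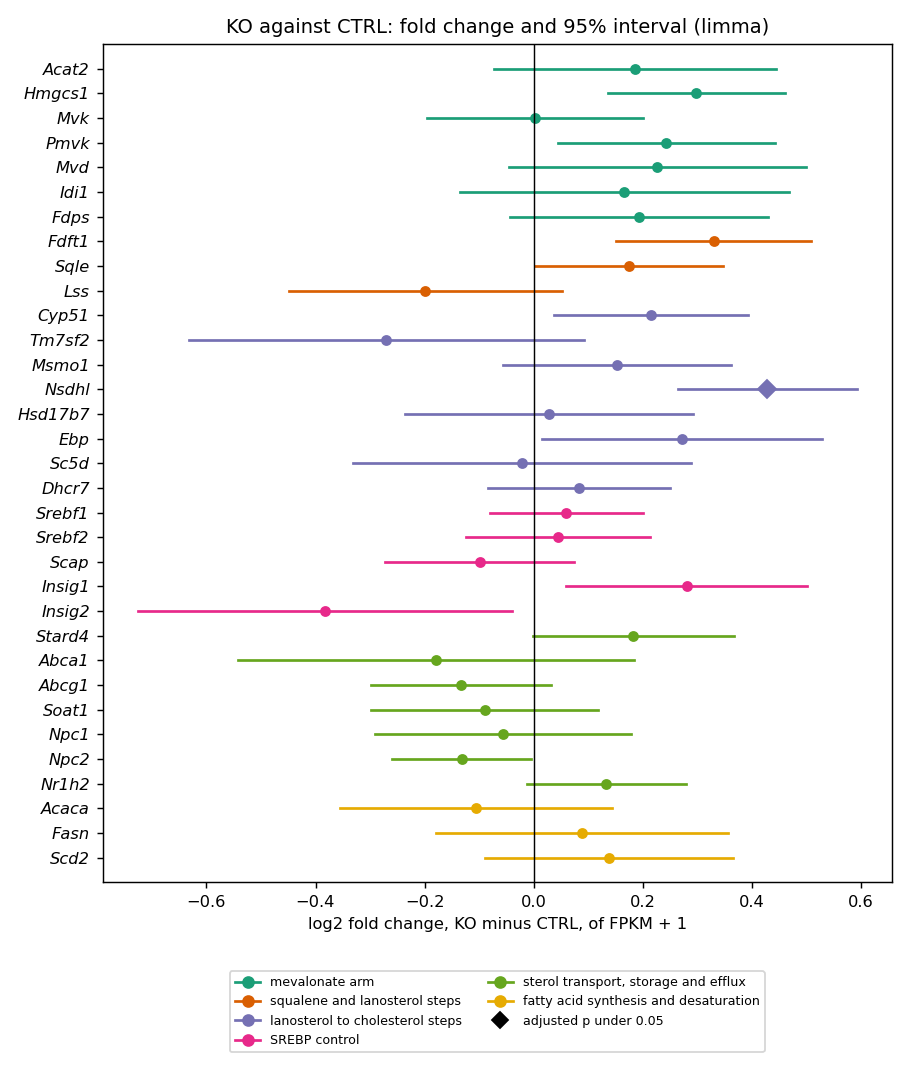
Log2 fold change of FPKM + 1 (KO minus CTRL) with its 95% interval from limma for the 33 genes tested, coloured by role, in the order of the pathway from top to bottom. The diamond marks Nsdhl (0.43), the only gene past the threshold, and most intervals of the other genes include 0.

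In the mevalonate arm, which turns acetyl-CoA into farnesyl diphosphate, all 7 fold changes were above 0, against 46.2% of all genes tested. None passed the threshold (0 of 7, against 9.75% of all genes tested). At an unadjusted p under 0.05, 2 of the 7 had a positive fold change, against 16.3% of all genes tested. Hmgcs1, which encodes the synthase that makes HMG-CoA (GRCm38, chromosome 13, bases 119690379 to 119708260), had levels of 13.0 and 12.7 FPKM in the CTRL libraries against 16.2 and 15.8 FPKM in the KO libraries. The 2 groups stood well apart and the replicates lay close together. Its log2 fold change was 0.30 (standard error 0.064), and its adjusted p of 0.0509 was just short of the threshold. It passed under 5 of 15 other settings, with adjusted p from 0.0328 to 0.171.

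Pmvk, the gene of phosphomevalonate kinase, was at 10.4 and 9.87 FPKM in the CTRL libraries against 11.7 and 12.7 FPKM in the KO libraries. The groups did not overlap, and the fold change was 0.24 (95% interval 0.044 to 0.44, adjusted p 0.1002). For Mvd, which encodes the decarboxylase that forms isopentenyl diphosphate, the levels were 15.3 and 14.8 FPKM in the CTRL libraries against 16.1 and 19.7 FPKM in the KO libraries, and the fold change of 0.23 rested on KO 2, being 0.089 without it. Fdps, the farnesyl diphosphate synthase gene, was at 20.1 and 21.6 FPKM in the CTRL libraries against 22.2 and 25.8 FPKM in the KO libraries, again with KO 2 the highest. Without KO 2 the fold change of Fdps was 0.088. The thiolase gene Acat2, which acts at the entry to the pathway, and the isomerase gene Idi1 had fold changes of 0.19 and 0.17, which ranged from 0.098 to 0.27 and from 0.065 to 0.27 when each library was left out in turn. The CTRL libraries of Idi1 overlapped those of KO. The mevalonate kinase gene Mvk overlapped between the groups, at 7.57 and 8.16 FPKM in the CTRL libraries against 7.90 and 7.85 FPKM in the KO libraries, with a fold change of 0.0028 (95% interval -0.19 to 0.20). The sign of the Mvk fold change was reversed under 5 of 15 other settings. Part of the transcript sequence of 3 of these genes also occurs in another gene, so that the counting could split their reads. Of their stretches of 100 bases this was 28.9% for Acat2 (shared mostly with Acat3), 21.4% for Fdps and 15.8% for Idi1 (shared with Gm43738 and Gm13502).

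The next steps join and cyclize the chain. Fdft1, which encodes squalene synthase and commits farnesyl diphosphate to sterols (chromosome 14, bases 63145150 to 63179578), had levels of 13.1 and 12.4 FPKM in the CTRL libraries against 15.9 and 16.7 FPKM in the KO libraries. Its fold change of 0.33 (standard error 0.070) had an adjusted p of 0.0509, and it passed the threshold under 5 of 15 other settings (0.0333 to 0.174). Of its exon bases, 18.3% overlap Ctsb on the other strand, and whether reads were counted by strand was not stated, so its value is uncertain. Ctsb, a lysosomal protease gene, was at 111.6 and 93.3 FPKM in the CTRL libraries against 133.8 and 109.6 FPKM in the KO libraries. The squalene epoxidase gene Sqle was at 9.53 and 9.77 FPKM in the CTRL libraries against 10.9 and 11.1 FPKM in the KO libraries, a fold change of 0.17 (95% interval 0.0015 to 0.35, adjusted p 0.142). The lanosterol synthase gene Lss stood on the other side, at 4.45 and 3.96 FPKM in the CTRL libraries against 3.46 and 3.61 FPKM in the KO libraries. Its fold change was -0.20 (95% interval -0.45 to 0.052, adjusted p 0.218), so neighbouring steps of the pathway differed in sign, without a test of the difference between them.

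From lanosterol to cholesterol, 1 of 8 genes rose (12.5%, against 5.10% of all genes tested). At an unadjusted p under 0.05, 3 of the 8 had a positive fold change, against 16.3% of all genes tested. Nsdhl encodes a sterol dehydrogenase that takes part in the removal of methyl groups from lanosterol-derived sterols (ENSMUSG00000031349, chromosome X, 72918557 to 72958514). Its level was 15.6 FPKM (CTRL 1) and 14.9 FPKM (CTRL 2) against 21.2 FPKM (KO 1) and 20.6 FPKM (KO 2). Both KO libraries were clearly above both CTRL libraries, and each pair of replicates lay close together. The CTRL mean was 15.3 ± 0.50 FPKM and the KO mean 20.9 ± 0.48 FPKM (SD, n = 2 each), 1.37 times as high. The log2 fold change was 0.43 (standard error 0.064, 95% interval 0.26 to 0.59) and the adjusted p 0.0355. At least 1138 reads stood behind each value. No other gene of the deposited table overlaps the exons of Nsdhl. No transcript of another annotated gene shares a stretch of 100 bases with it in the same direction. The call held under 10 of 15 other settings, with adjusted p from 0.0189 to 0.140. It was lost when all genes above 0 were tested and when any of the 4 libraries was left out, while its fold change ranged only from 0.40 to 0.46.

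Around Nsdhl in the pathway, the demethylase gene Cyp51 was at 11.8 and 11.1 FPKM in the CTRL libraries against 13.7 and 13.2 FPKM in the KO libraries, with a fold change of 0.22 (95% interval 0.037 to 0.39, adjusted p 0.102). Of its exon bases, 3.8% overlap Akap9, which fell in KO (-0.38, standard error 0.073, adjusted p 0.0434). Ebp, the gene of the sterol isomerase and likewise X-linked, was at 35.9 and 37.7 FPKM in the CTRL libraries against 40.6 and 49.0 FPKM in the KO libraries. Its fold change was 0.27 (95% interval 0.015 to 0.53, adjusted p 0.129), and it was 0.14 without KO 2. Msmo1, the methylsterol monooxygenase gene, had CTRL levels of 14.9 and 15.1 FPKM and KO levels of 15.7 and 17.9 FPKM. Dhcr7, the gene of the reductase that completes cholesterol, had CTRL levels of 15.1 and 15.8 FPKM and KO levels of 16.1 and 16.7 FPKM, and in both genes the groups did not overlap. Hsd17b7 (0.028) and the desaturase gene Sc5d (-0.021) overlapped between the groups. The sterol reductase gene Tm7sf2 was at 7.11 and 5.86 FPKM in the CTRL libraries against 4.596 and 5.83 FPKM in the KO libraries. CTRL 2 and KO 2 were nearly equal, and the fold change of -0.27 had an interval of -0.63 to 0.093. It ranged from -0.41 without KO 2 to -0.13 without KO 1. Of the exon bases of Tm7sf2, 12.1% overlap Vps51 on the same strand, so its value is uncertain too.

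**Figure D3:**
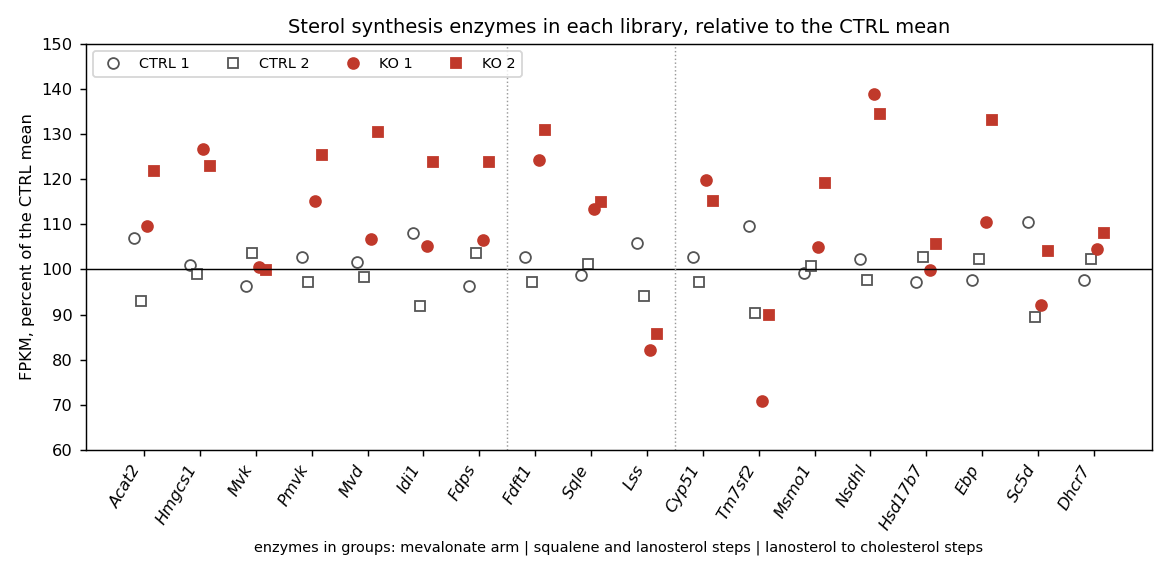
FPKM of the 18 enzymes of sterol synthesis in each library as a percent of the gene's CTRL mean, in pathway order from Acat2 to Dhcr7, with dotted lines between the 3 groups of steps. Both filled symbols (KO) lie above both open symbols (CTRL) in 12 of the 18 genes, most clearly for Nsdhl, Hmgcs1 and Fdft1, and below them for Lss and Tm7sf2.

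The promoters of 26 of the 34 genes were at hand (RefSeq, GRCm38.p6, 250 bases before to 50 bases after each start), and were searched on both strands for 4 short motifs. Fdps, Fdft1, Sqle, Stard4, Abcg1, Npc1, Scd1 and Scd2 had no promoter there and were not searched. Bases just after a start were found near the beginning of an annotated transcript, in the same direction, for 20 of the 26 genes. The rest were not checked further. None of the motifs contains another. The CCAAT box (CCAAT, the site of NF-Y, a partner of SREBP) was found in 14 of the 15 sterol synthesis enzyme genes with a promoter (93.3%), compared with 43.3% of the 8873 tested genes that had one and 41.1% of all 27025 genes. Of the 26 genes, 21 had it (80.8%). A gene counts here when any of its promoters holds the motif, and of the 32851 single promoters 37.4% did. The GC box (GGGCGG, the site of Sp1) was in 14 of the 15 enzyme genes as well and in 22 of the 26 (84.6%), compared with 69.1% of the tested genes, 38.2% of all genes and 35.7% of all promoters. The core of the sterol regulatory element (SRE), searched as TCACNCCAC, was found in Hmgcs1 alone among the 26 genes, compared with 1.36% of the tested genes and 1.24% of all promoters. The E-box CACGTG was in 6 of the 26 (23.1%), compared with 12.04% of the tested genes, 8.09% of all genes and 7.15% of all promoters. A match is a description of the letters, and a site that differs from these letters would be missed. The 150 bases before the start are shown for Nsdhl, the gene that rose, for Hmgcs1, which holds the SRE core, and for Insig1 and Insig2, whose levels lay on opposite sides in KO. They are written 5′ to 3′ on the strand of the gene, with motif matches in capitals.
Nsdhl (chrX:72918371-72918520, plus strand): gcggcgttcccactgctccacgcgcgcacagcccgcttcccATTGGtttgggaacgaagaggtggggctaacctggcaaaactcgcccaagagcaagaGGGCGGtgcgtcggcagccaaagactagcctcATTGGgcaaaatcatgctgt
Hmgcs1 (chr13:119690201-119690350, plus strand): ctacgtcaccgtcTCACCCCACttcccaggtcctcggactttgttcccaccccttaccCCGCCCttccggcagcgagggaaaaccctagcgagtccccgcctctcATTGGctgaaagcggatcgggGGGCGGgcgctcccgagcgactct
Insig1 (chr5:28071262-28071411, plus strand): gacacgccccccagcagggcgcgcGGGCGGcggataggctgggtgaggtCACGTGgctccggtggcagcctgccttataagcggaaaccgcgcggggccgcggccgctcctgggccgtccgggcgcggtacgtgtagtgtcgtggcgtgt
Insig2 (chr1:121332590-121332739, minus strand): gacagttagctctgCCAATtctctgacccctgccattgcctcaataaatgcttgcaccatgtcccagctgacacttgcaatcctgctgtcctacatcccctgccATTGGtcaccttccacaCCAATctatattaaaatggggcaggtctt
In Hmgcs1 the SRE core spans bases 137 to 129 before the start, upstream of a CCAAT box on the opposite strand at 45 to 41. Nsdhl has a CCAAT box on the opposite strand at 109 to 105 and another at 20 to 16, with a GC box between them at 52 to 47. Insig1 has a GC box at 126 to 121 and an E-box at 101 to 96 in this stretch, whereas the stretch shown for Insig2 has 3 CCAAT boxes and neither of those motifs. Over the full windows, with any start counted, both genes held a CCAAT box and a GC box. There the E-box was found for Insig1 and not for Insig2. Insig2 has more than 1 start in the table, and the one that lies furthest upstream is shown.

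Among the genes that control SREBP, none of 5 passed the threshold, against 9.75% of all genes tested. At an unadjusted p under 0.05, 1 had a positive and 1 a negative fold change, against 16.3% and 18.4% of all genes tested. The transcription factor genes had small fold changes. Srebf1, whose product favours fatty acid synthesis, was at 27.5 and 27.4 FPKM in the CTRL libraries against 28.8 and 28.6 FPKM in the KO libraries (fold change 0.060, 95% interval -0.081 to 0.20), and its groups did not overlap. Srebf2 was at 61.1 and 66.9 FPKM in the CTRL libraries against 65.0 and 66.9 FPKM in the KO libraries (0.045, 95% interval -0.12 to 0.21). Srebf2 was the more abundant in each library, by 2.22 to 2.44 times. Scap, the gene of the escort protein, was at 26.2 and 28.5 FPKM in the CTRL libraries against 25.8 and 25.1 FPKM in the KO libraries, with a fold change of -0.099.

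The INSIG genes, which encode the brakes on this system, lay on opposite sides. Insig1, itself a known SREBP target, was at 30.2 and 31.1 FPKM in the CTRL libraries against 40.4 and 34.8 FPKM in the KO libraries. Its fold change was 0.28 (95% interval 0.060 to 0.50, adjusted p 0.0923). Insig2, whose liver transcript is known to be repressed by insulin, was at 7.50 and 6.90 FPKM in the CTRL libraries against 4.601 and 6.06 FPKM in the KO libraries. Its fold change was -0.38 (95% interval -0.72 to -0.040, adjusted p 0.118). For both genes the groups did not overlap, and KO 1 stood further from CTRL than KO 2. Without KO 1 the fold change was 0.18 for Insig1 and -0.22 for Insig2. The ratio of Insig1 to Insig2 was 4.03 and 4.51 for the CTRL libraries, against 8.78 for KO 1 and 5.74 for KO 2. The ratio was higher in both KO libraries than in both CTRL libraries, with a wide gap between the KO libraries, and it was not tested.

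**Figure D4:**
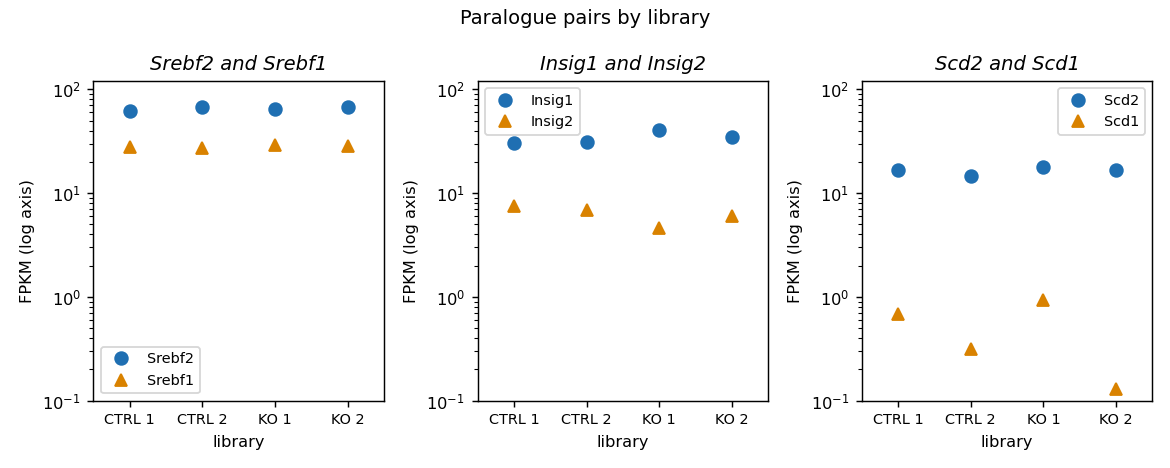
FPKM on a log axis in each of the 4 libraries for the pairs Srebf2 and Srebf1, Insig1 and Insig2, and Scd2 and Scd1 (circles for the first and triangles for the second gene of each pair). The distance between Insig1 and Insig2 is widest in KO 1 (8.78 times), the Srebf pair keeps nearly the same distance (2.22 to 2.44 times), and Scd1 varies more between replicates than between genotypes.

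Of the 7 genes of sterol transport, storage and efflux, none passed the threshold, against 9.75% of all genes tested. At an unadjusted p under 0.05, 1 had a negative fold change, against 18.4% of all genes tested. None had a positive one, against 16.3%. Fold changes were above 0 in 2 and below 0 in 5, where 46.2% of all genes tested were above 0. Npc2 was at 79.3 and 79.7 FPKM in the CTRL libraries against 72.6 and 72.3 FPKM in the KO libraries. The groups were apart by more than the replicates, although the fold change was only -0.13 (95% interval -0.26 to -0.0043, adjusted p 0.135). Npc1, the gene of its membrane-bound partner in the lysosome, had a fold change of -0.056 with groups that overlapped. Abcg1, one of the cholesterol exporters, was at 24.5 and 24.8 FPKM in the CTRL libraries against 23.2 and 21.6 FPKM in the KO libraries (-0.13, 95% interval -0.30 to 0.032). Abca1, the other exporter, was at 2.14 and 1.80 FPKM in the CTRL libraries against 1.84 and 1.41 FPKM in the KO libraries (-0.18, 95% interval -0.54 to 0.18). In each genotype Abca1 was higher in replicate 1, the library with the higher myeloid marker sum, and whether myeloid RNA plays a part was not tested. Soat1, which encodes the enzyme that esterifies cholesterol for storage, had CTRL levels of 9.17 and 8.28 FPKM and KO levels of 8.09 and 8.17 FPKM. On the positive side, Stard4, which encodes a sterol carrier of the cytosol, was at 8.17 and 8.09 FPKM in the CTRL libraries against 9.16 and 9.57 FPKM in the KO libraries (0.18, 95% interval -0.00056 to 0.37). Nr1h2 was at 76.2 and 80.01 FPKM in the CTRL libraries against 87.3 and 84.1 FPKM in the KO libraries (0.13, 95% interval -0.013 to 0.28).

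Of the genes of fatty acid synthesis and desaturation, none of 3 tested passed the threshold, against 9.75% of all genes tested. None had an unadjusted p under 0.05, against 16.3% of all genes with a positive and 18.4% with a negative fold change. Acaca, whose product makes malonyl-CoA, was at 3.62 and 4.06 FPKM in the CTRL libraries against 3.52 and 3.47 FPKM in the KO libraries. Another gene, mostly Gm5182, holds 23.7% of its stretches of 100 bases as well. Fasn, the fatty acid synthase gene, was at 15.8 and 19.2 FPKM in the CTRL libraries against 19.2 and 18.03 FPKM in the KO libraries, and CTRL 2 lay within the KO range. The desaturase gene Scd2 was at 16.6 and 14.5 FPKM in the CTRL libraries against 17.8 and 16.6 FPKM in the KO libraries. In Acaca both KO libraries were below and in Scd2, by a small margin, above both CTRL libraries. The fold changes were -0.11 (Acaca, 95% interval -0.35 to 0.14), 0.089 (Fasn, -0.18 to 0.36) and 0.14 (Scd2, -0.089 to 0.37). Scd1 was at 0.681 and 0.316 FPKM in the CTRL libraries against 0.937 and 0.128 FPKM in the KO libraries, with at least 108, 53, 160 and 22 reads, and was not tested. It was higher in replicate 1 of each genotype, as the myeloid markers were, and this was not tested further.

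The rest of these pathways was read from a list of 78 further genes, of which 66 were tested. Of these, 1 rose and 3 fell (1.52% and 4.55%, beside 5.10% and 4.65% of all genes), and the median fold change was -0.056. Both Erlin genes fell. Their products form a complex of the endoplasmic reticulum that binds cholesterol and takes part in the sterol-regulated degradation of membrane proteins. Erlin1 was at 3.59 and 2.98 FPKM in the CTRL libraries against 1.84 and 1.78 FPKM in the KO libraries (fold change -0.60, standard error 0.12, adjusted p 0.0447). Erlin2 was at 8.33 and 8.02 FPKM in the CTRL libraries against 5.96 and 5.64 FPKM in the KO libraries (-0.43, standard error 0.078, adjusted p 0.0411). For both, the groups were far apart compared with the replicates. Of the 14 genes of SREBP processing and sterol-regulated degradation, these 2 fell (14.3%, against 4.65% of all genes) and none rose (against 5.10%). Both KO libraries were below both CTRL libraries in 8 of the 14 (57.1%, against 35.5% of all genes) and above them in 4 (28.6%, against 29.0%).

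Among 15 further genes of fatty acid synthesis, elongation and desaturation that were tested, 1 rose and 1 fell (6.67% each, against 5.10% and 4.65% of all genes). Mid1ip1, which encodes a protein that promotes the assembly of acetyl-CoA carboxylase, was at 10.5 and 10.7 FPKM in the CTRL libraries against 14.8 and 15.4 FPKM in the KO libraries (fold change 0.47, standard error 0.066, adjusted p 0.0351). Mecr, the gene of a reductase of mitochondrial fatty acid synthesis, was at 9.14 and 9.41 FPKM in the CTRL libraries against 6.10 and 6.37 FPKM in the KO libraries (-0.51, standard error 0.074, adjusted p 0.0351). Both differences were large beside the gap between replicates. None of 12 other genes of sterol and isoprenoid synthesis or of 15 tested genes of sterol uptake, transport and storage passed the threshold. Nor did any of 8 partners and targets of the liver X receptors or of 2 tested genes of oxysterol synthesis. Over all genes tested, 9.75% passed. At an unadjusted p under 0.05, these 4 groups had 2, 1, 1 and 0 genes with positive and 0, 0, 2 and 0 with negative fold changes, respectively. Over all genes tested, the shares were 16.3% and 18.4%. With limma-voom on recovered reads, 881 of all 11399 genes tested rose and 1008 fell. In that fit, 3 of the 66 further genes tested rose and 5 fell. No call among them was kept when any 1 library was left out or when all genes above 0 were tested, and the Erlin calls were also lost after removal of the trend with gene length, that of Erlin2 after quantile normalization too. Without 1 library the fold changes ranged from -0.71 to -0.50 for Erlin1, from -0.47 to -0.40 for Erlin2, from -0.53 to -0.48 for Mecr and from 0.45 to 0.50 for Mid1ip1. After removal of the length trend they were -0.59 for Erlin1 (adjusted p 0.0574) and -0.40 for Erlin2 (adjusted p 0.0556).

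Levels of proliferation genes moved with the genotype, and are given here beside the sterol enzymes. Of 16 proliferation genes, 11 rose (68.8%, against 5.10% of all genes) and none fell (against 4.65%), and in all 16 both KO libraries were above both CTRL libraries (against 29.0% of all genes). Their summed level was 503 and 418 FPKM in the CTRL libraries against 696 and 688 FPKM in the KO libraries, 1.502 times the CTRL mean. The summed level of the 18 enzymes of sterol synthesis was 233 and 226 FPKM in the CTRL libraries against 251 and 276 FPKM in the KO libraries, 1.15 times the CTRL mean. By steps, it was 1.17 times for the mevalonate arm, 1.16 times for the squalene and lanosterol steps and 1.14 times from lanosterol to cholesterol. It was 1.04 times for SREBP control, 0.991 times for transport, storage and efflux and 1.06 times for fatty acid synthesis. The part of proliferation in the levels of the sterol enzymes was not tested.

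**Figure D5:**
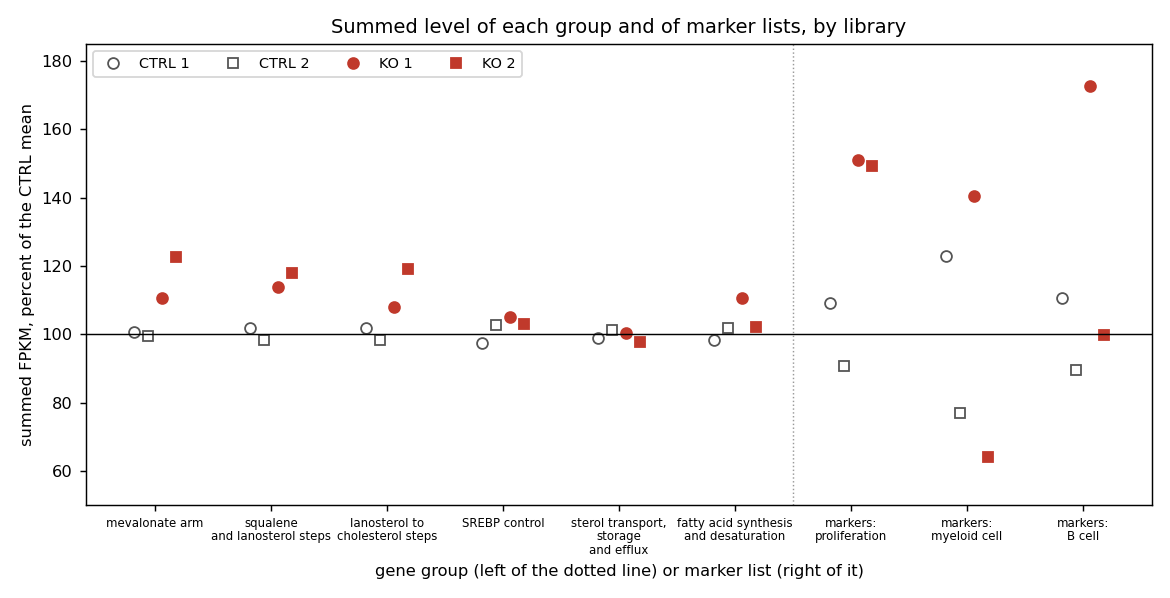
Summed FPKM of each group of genes and of 3 marker lists in each library, as a percent of the mean of the 2 CTRL libraries. Both KO libraries lie above both CTRL libraries in the 3 groups of sterol synthesis (1.14 to 1.17 times on average) and in the proliferation markers (1.502 times), and in the myeloid and B cell sums the genotypes overlap.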

How the data were processed

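RNA-seq was performed by the authors on sorted splenic Treg cells, with 2 libraries per genotype. RNA was selected with oligo(dT) and sequenced as 150 bp pairs. Per the labels and the methods, reads were mapped to mm10 (GRCm38) with HISAT2 (2.2.1) and counted per gene with featureCounts (2.0.1), and the authors compared counts with edgeR (3.34.0). The deposited values were FPKM, so a count test was not used as the main test. Not given in the sources used here were the gene length behind FPKM, whether strand was used, and how reads with several matches were treated. Columns named WT were read as the CTRL libraries of the same number.

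KO was compared with CTRL by limma (3.58.1, R 4.3.3), on log2(FPKM + 1), using lmFit and then eBayes with the variance allowed to follow the mean level. A pseudocount of 1 understates the fold change of low genes. A gene entered if 2 or more libraries reached 1 FPKM. The Benjamini-Hochberg adjustment of the two-sided p-values ran over the 11399 genes that entered. With 2 pools per group, the precision is that of the spread between pools, with a median standard error of 0.087. Whole reads were recovered for 19888 of 19888 genes above 0 (tolerance 0.002), as lower bounds. Gene positions, exon overlaps and transcripts came from GENCODE vM21, which held 24021 of the identifiers, and 50 identifiers were listed more than once. Python 3.11.15, numpy 2.4.6, pandas 2.3.3 and matplotlib 3.10.9 were used, and the procedure was tested on simulated data, in which the share of unchanged genes among the calls was above the level that the threshold states.

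The 34 genes, the lists and the motifs were chosen with earlier results of these data known. All 34 genes are accounted for, and further genes of the pathways were named when past the threshold. A further gene that this rule also named is in the counts and is not reported here. The 15 alternatives of the fit were other pseudocounts, filters, scalings and variance models, limma-voom, removal of the length trend, the replicate block and leaving out each library.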

Additional observations from a re-analysis of the deposited data

How the results depend on the processing

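Nsdhl was the gene past the threshold in the main comparison. Over all genes, 654 of 8646 tested rose with a filter on mean FPKM above 5. Of 11399 tested, 712 rose after median-ratio scaling, 524 after quantile normalization, 744 with robust eBayes and 881 with limma-voom on recovered reads. Of the 34 genes, 29 were tested with the filter on mean FPKM and 33 under the others. The number of the 34 genes that rose was 3 (Nsdhl, Hmgcs1 and Fdft1) under each of these settings. It was 0 with all genes above 0 tested, where 8 of them still had a positive fold change at an unadjusted p under 0.05, and 0 in each fit that left out 1 library, where 3 to 8 did. None fell under any of the 15 settings, where 0 to 2 had a negative fold change at an unadjusted p under 0.05. The median over these genes was above 0 under all settings and ranged from 0.066 to 0.098 without 1 library. Over all genes, 0 rose and 0 fell with all genes above 0 tested, where the smallest adjusted p by limma was 0.0833. This setting adds weakly expressed genes to the variance fit as well as to the adjustment, and the part of each was not tested. Without the variance trend 315 rose, with limma-voom 881 rose and 1008 fell, and after removal of the length trend 310 fell. Without 1 library 0 to 1 rose and 0 to 1 fell, with fewer samples to estimate the spread. Of the 78 further genes, 0 rose and 0 fell with all genes above 0 tested and without any 1 library, 3 rose and 5 fell with limma-voom, and 1 fell after removal of the length trend. Where no construction is named, the cause was not tested.

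The replicate numbers tie libraries by number only. How far replicate 1 lay from its group mean was related between CTRL and KO across genes by a Pearson r of 0.342 but a Spearman rho of only 0.055. With the replicate block, 968 genes rose and 805 fell, and Nsdhl was still the only one of the 34 genes past the threshold.

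Fold changes near 0 changed sign in some settings, and none of these genes passed the threshold in any. Mvk was at -0.0098 after scaling to the same sum, -0.00026 with limma-voom and -0.036 after removal of the length trend, which also put Npc1 at 0.037 and Acaca at 0.040. Sc5d was at 0.0018 after median-ratio scaling and Srebf2 at -0.022 after quantile normalization. Without 1 library, the fold change ranged from -0.045 to 0.051 for Mvk, from -0.0014 to 0.057 for Hsd17b7, from -0.17 to 0.12 for Sc5d, from -0.020 to 0.11 for Srebf2, from -0.16 to 0.048 for Npc1 and from -0.041 to 0.22 for Fasn. Without a change of sign, it ranged from -0.27 to -0.13 for Lss, from -0.30 to -0.060 for Abca1, from -0.18 to -0.084 for Abcg1, from -0.17 to -0.041 for Acaca and from 0.045 to 0.23 for Scd2. The fold change of Setd2 was below 0 in all 15 settings, and none of them took it past the threshold. The other scalings of the library arrangement were chosen after seeing the data.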

Other observations

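Of the 78 further genes of these pathways, 12 were below the filter and were not tested. Among these 12, both KO libraries were above both CTRL libraries in 5 genes, which were chosen after their values were seen. Fads2, a fatty acid desaturase gene, was at 0.202 and 0.153 FPKM in the CTRL libraries against 0.714 and 0.673 FPKM in the KO libraries, with at least 5, 4, 19 and 18 reads. Ch25h, which encodes the enzyme that makes an oxysterol of immune cells, was at 0.180 and 0.128 FPKM in the CTRL libraries against 0.502 and 0.584 FPKM in the KO libraries, with at least 4, 3, 12 and 14 reads. The other genes were Elovl4, Me1 and Cyp46a1, of which Cyp46a1 was listed at 0 in CTRL 2. All of these values rest on few reads, and no test was made.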
